A study of Rattus norvegicus with 15 samples.

Results

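Tgm2, Btg2 and Pdk4 are genes known to be induced by retinoic acid in several cell types, and they were described here across every RNA-seq library of a differentiation course of rat myoblasts. They were chosen by symbol, as known RA targets whose counts with and without RA in these libraries had been seen, and the rows named exactly Tgm2, Btg2 or Pdk4 gave 3 of the 11574 genes in the count table. All cultures were of H9c2, a single established line of myoblasts that was isolated from the ventricle of an embryonic rat. Cultures were left to attach and were harvested at T0, or were moved to low serum and harvested at 7 days (T7) or 14 days (T14), either without retinoic acid (-RA) or with 1 µM all-trans RA added daily (+RA). Each of the 5 groups, written T0, T7-RA, T7+RA, T14-RA and T14+RA, held 3 cultures. T0 precedes the change to low serum, so differences from T0 combine time in culture with the change of serum and these cannot be told apart. RA was dissolved in DMSO, and whether the -RA cultures received DMSO alone is not given in the sources used here. In bulk RNA, fewer expressing cells and less RNA per cell cannot be told apart.

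RA enters the nucleus and binds RAR receptors, which pair with RXR receptors on DNA elements built from repeats of a short motif and switch on nearby genes, among them the enzymes that break RA down. Tgm2 encodes transglutaminase 2, a calcium-dependent enzyme that cross-links proteins and also acts at the cell surface as a partner of fibronectin and integrins. Btg2 encodes an antiproliferative protein of the BTG and TOB family that recruits the CCR4-NOT deadenylase to messenger RNAs and is also a p53 target and an immediate early gene. Pdk4 encodes a mitochondrial kinase that phosphorylates and switches off pyruvate dehydrogenase, so that less pyruvate from glucose enters the citric acid cycle, and in muscle it is known to respond to PPAR and FOXO factors.

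In the deposited annotation Tgm2 (ENSRNOG00000012956) lies in band 3q42, Btg2 (ENSRNOG00000003300) in band 13q13 and Pdk4 (ENSRNOG00000009565) in band 4q13. The sequences just upstream of Btg2 and Pdk4 are shown because RAR and RXR bind repeats of the letters AGGTCA or AGTTCA. Each is the stretch of 250 bases before the RefSeq gene start in the GRCr8 build, written in the direction of the gene, with any match to AGGTCA or AGTTCA on either strand in capitals. Btg2 is on the minus strand at chr13:48087691-48087940, and Pdk4 is on the minus strand at chr4:34568330-34568579.
Btg2: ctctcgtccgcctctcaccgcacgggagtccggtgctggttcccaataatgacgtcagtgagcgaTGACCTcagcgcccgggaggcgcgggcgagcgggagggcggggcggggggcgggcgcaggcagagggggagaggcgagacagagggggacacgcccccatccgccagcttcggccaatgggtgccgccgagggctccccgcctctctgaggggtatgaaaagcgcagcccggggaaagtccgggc
Pdk4: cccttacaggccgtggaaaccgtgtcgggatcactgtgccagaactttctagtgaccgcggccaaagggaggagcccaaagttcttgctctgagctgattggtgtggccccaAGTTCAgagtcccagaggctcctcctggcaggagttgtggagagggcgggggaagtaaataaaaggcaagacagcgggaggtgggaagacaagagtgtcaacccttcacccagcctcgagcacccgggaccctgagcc
Btg2 held 1 match, to AGGTCA on the opposite strand, from 185 to 180 bases before the start. Pdk4 held 1 match, to AGTTCA on its own strand, from 138 to 133 bases before the start. Of 27457 rat promoters of the same length, 13.7% held AGGTCA, 12.1% held AGTTCA and 23.8% held either, and among the 8608 promoters of genes measured here the share with either was 16.6%. A match to so short a word is a description of the letters and not a binding site.

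Counts per library ranged from 508397 to 1030820, and the median gene had 22 counts in a library. Tgm2, Btg2 and Pdk4 had 313, 654 and 47 counts over all 15 libraries, so Btg2 was measured most firmly and Pdk4 least. Levels are given as CPM, the counts relative to library size after scaling by the TMM method, which corrects for differences in RNA composition between libraries. The identity of the cells was checked by markers. Of 11 skeletal muscle markers 9 were measured, and 8 of these passed the test upward from T0 to T14-RA (edgeR quasi-likelihood test across all genes, Benjamini-Hochberg adjusted p under 0.001, the threshold used in these comparisons), where 7.83% of all genes did and 7.84% passed downward. They included Myh3, the embryonic myosin heavy chain (log2 change 6.98), and Acta1, skeletal actin (6.24). The measured marker that did not pass, Myod1, was lower (-0.57 ± 0.191, edgeR adjusted p = 0.0155). At T0 the skeletal muscle markers summed to only 279 to 321 CPM. Smooth muscle markers summed to 15822 to 17306 CPM there and fibroblast markers to 28816 to 42073 CPM. Of 11 cardiac muscle markers only Gata4, Hand2 and Actc1 had a row among the genes analysed here, and Nkx2-5, Myh6, Myh7 and Nppa did not. None of 6 leukocyte markers and only Tek of 6 endothelial markers had a row, and Tek lay between 0 and 6.29 CPM in every library.

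Tgm2 was low in every culture without RA and high in every culture with RA, at both times. The cultures at T0 had 2, 3 and 0 counts, those of T7-RA 6, 3 and 10, and those of T14-RA 2, 5 and 2. With RA they were 52, 55 and 20 at T7 and 78, 43 and 32 at T14. In CPM the 9 libraries without RA ranged from 0 to 14.5 and the 6 with RA from 34.3 to 75.2, so the 2 sets did not overlap. The mean level at T0 was 2.80 ± 2.81 CPM (SD, n = 3), that of T7-RA 8.57 ± 5.39 and that of T14-RA 4.88 ± 3.48. It was 60.7 ± 22.9 CPM in T7+RA and 66.9 ± 8.63 in T14+RA, where T7+RA replicate 3 stood below the other two cultures of its group at 34.3 CPM. The order of the means was T0, T14-RA, T7-RA, T7+RA and T14+RA, and only the step from T7-RA to T7+RA was free of overlap between neighbours.

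The log2 fold change of Tgm2 with RA was 2.86 ± 0.351 (SE) at day 7, which is 7.25-fold, and 3.85 ± 0.404 at day 14, which is 14.4-fold. Since the gene was chosen with its response to RA known, these values are a description and carry no test. The ratio of the summed counts, relative to library size, was 7.48 at day 7 with an exact interval at 95% confidence of 4.60 to 12.8, and 15.2 at day 14 with an interval of 7.79 to 33.9, where the interval covers counting error only. The change at day 14 minus that at day 7 was 0.99 ± 0.658 on the log2 scale, and the levels of the RA groups themselves differed by 0.13 ± 0.241 between T14 and T7, a value that turned to -0.12 without T7+RA replicate 3. The day 14 change rests on 9 counts in T14-RA, and without T14-RA replicate 2, which held 5 of them, it was 4.51. In absolute size the RA change of Tgm2 exceeded that of 99.2% of all genes at day 7 and 99.6% at day 14.

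Without RA, the groups of Tgm2 overlapped in all 3 comparisons of time, which are also given as a description, since the -RA cultures serve as the controls of the RA comparison as well. The log2 change was 1.48 ± 0.706 from T0 to T7-RA, 0.63 ± 0.824 from T0 to T14-RA and -0.86 ± 0.612 from T7-RA to T14-RA. The first was 2.22 without T0 replicate 2 and 0.94 without T7-RA replicate 3. The second was 1.37 without T0 replicate 2, 0.19 without T0 replicate 3, 1.03 without T14-RA replicate 1 and turned to -0.028 without T14-RA replicate 2. The last was -1.52 without T14-RA replicate 2, -0.45 without T14-RA replicate 1 and -0.31 without T7-RA replicate 3. The ratio of summed counts between T7-RA and T0 was 2.90 with an interval of 1.05 to 9.95, so at this depth its size was only loosely bounded. Against T0, where 18.4% of all genes were higher without overlap at T7+RA and 22.5% at T14+RA, Tgm2 with RA was higher by 4.34 ± 0.472 at T7 and 4.48 ± 0.461 at T14 on the log2 scale, on 5 counts at T0, and without T0 replicate 2 these values were 5.09 and 5.23.

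**Figure D1:**
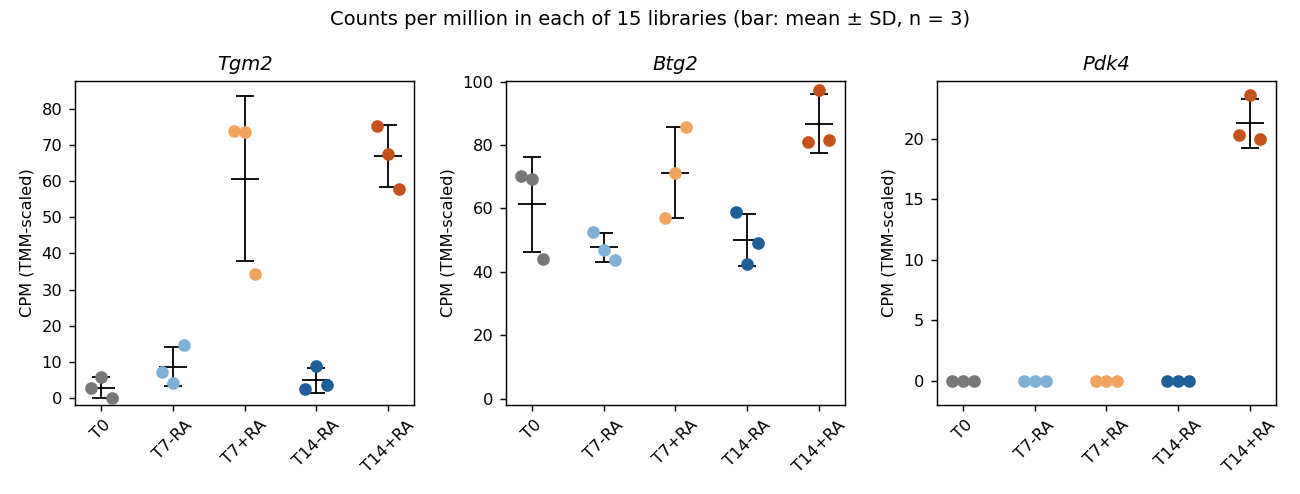
Level of Tgm2, Btg2 and Pdk4 in each of the 15 libraries, with the group on the x axis and TMM-scaled CPM on the y axis. Points are libraries and bars the mean ± SD of 3 libraries. Tgm2 lies between 34.3 and 75.2 CPM in the 6 libraries with RA and at most 14.5 CPM in the others, Btg2 shows smaller steps, and Pdk4 is above 0 only in T14+RA.

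Btg2 was expressed in every library and was moderately higher with RA. The cultures at T0 had 70.4, 69.4 and 44.0 CPM, those of T7-RA 52.5, 47.0 and 43.6 CPM, and those of T14-RA 58.9, 42.5 and 49.1 CPM. With RA they were 57.0, 71.1 and 85.7 CPM at T7 and 81.0, 97.4 and 81.6 CPM at T14. All 3 T7+RA libraries lay above all 3 T7-RA libraries, and all 3 T14+RA libraries above all 3 T14-RA libraries. At T0 replicates 1 and 2 lay within the range of T7+RA and replicate 3 within that of the -RA groups. Group means with SD (n = 3) were 61.3 ± 14.9 CPM at T0, 47.7 ± 4.49 (T7-RA), 71.3 ± 14.34 (T7+RA), 50.2 ± 8.23 (T14-RA) and 86.7 ± 9.32 (T14+RA). In the order T7-RA, T14-RA, T0, T7+RA and T14+RA, every pair of neighbours overlapped.

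The log2 fold change of Btg2 with RA was 0.56 ± 0.207 at day 7 (1.47-fold) and 0.75 ± 0.201 at day 14 (1.69-fold), again as a description. The changes at the 2 days differed by 0.20 ± 0.292, less than their error. They were larger in absolute size than those of 78.1% of all genes at day 7 and 84.0% at day 14. The ratio of summed counts was 1.47 at day 7 with an interval of 1.14 to 1.90, and 1.67 at day 14 with an interval of 1.31 to 2.15. These intervals cover counting error only, leave out the spread between cultures and are not a test. Without RA the log2 change from T0 was -0.38 ± 0.218 at T7 and -0.29 ± 0.221 at T14. T14-RA and T7-RA differed by 0.09 ± 0.221, and the groups overlapped in all 3 comparisons. Against T0, Btg2 was higher by 0.46 ± 0.199 in T14+RA, without overlap, and by 0.18 ± 0.208 in T7+RA, where the cultures overlapped.

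Pdk4 was counted in T14+RA alone. Its counts there were 21, 15 and 11, or 20.3, 23.6 and 19.9 CPM, a mean of 21.3 ± 2.01 CPM (SD, n = 3). The other 12 libraries, including all 3 of T7+RA, had a count of 0. T14+RA therefore stood apart from the other 4 groups without overlap (against T7+RA, 14.4% of all genes were higher without overlap), while no difference among those 4 groups could be measured. A count of 0 over 3 libraries allows up to 1.32 CPM for T7-RA, 1.48 for T7+RA, 1.51 for T14-RA and 1.73 for T0, taking 3 counts over the group as the limit. Against that limit Pdk4 in T14+RA was at least 14.0-fold higher than in T14-RA, at least 12.2-fold higher than at T0 and higher than in T7+RA by at least 3.84 on the log2 scale. With a library fewer at 0 the bound is looser, and on the log2 scale it went from 3.81 to 3.02 without T14-RA replicate 1, from 3.61 to 2.85 without T0 replicate 1, and against T7+RA to 3.23 and 3.18 without its replicates 1 and 2. Of the 11574 genes, 1 had no count in all 12 libraries outside T14+RA, and that gene was Pdk4. The table holds only genes whose counts sum to 21 or more, so a gene with such a pattern and fewer counts could not appear in it.

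At T7 with RA, 2 of the 3 genes (Tgm2 and Btg2) lay above their -RA group without overlap, where 11.8% of all genes did. At T14 all 3 did, where 13.4% of all genes did, and Tgm2 and Btg2 did so on both days, against 4.95% of all genes. The rule chose the genes for this contrast, so the counts describe the choice. The change from T0 was part of the same rule and is read no further. For the genes described below that are not among the 3, the share of all genes that edgeR called with time without RA was 8.78% between T7-RA and T0, 15.7% between T14-RA and T0 and 2.95% between T14-RA and T7-RA. P-values measure the spread between these cultures, which the study calls biological replicates.

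Levels of different genes were compared per length, as CPM per kb of the size given in the deposited annotation. At T0 Btg2 stood at 23.9 ± 5.83 CPM per kb (SD, n = 3) and Tgm2 at 0.797 ± 0.803, at the 65.7th and 4.59th percentile of all genes. In T14+RA Btg2 stood at 33.8 ± 3.64 CPM per kb, Tgm2 at 19.1 ± 2.46 and Pdk4 at 13.5 ± 1.28, at the 74.7th, 58.9th and 48.0th percentile. With RA at T14 all 3 genes were thus in the middle to upper range of the genes in the table, and Tgm2 had come there from its bottom end. Over the 15 libraries the log2 CPM of Tgm2 and Btg2 had a Pearson r of 0.638, Tgm2 and Pdk4 of 0.602 and Btg2 and Pdk4 of 0.656, which describe libraries that share the same 5 groups.

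Among genes that carry RA signalling, 15 of a list of 33 were measured, and 3 passed the test upward with RA at each day and 0 downward, with 6 higher and 1 lower at day 7 and 5 higher and 1 lower at day 14 at an unadjusted p under 0.05. DESeq2 and both limma forms also called 3 at each day. Over all genes, edgeR called 1.87% higher and 1.3% lower at day 7, and 2.46% higher and 2.35% lower at day 14. At an unadjusted p under 0.05, the share of all genes was 8.67% higher and 8.58% lower at day 7 and 10.3% higher and 11.3% lower at day 14, and the unadjusted counts of the lists are to be read against these shares. The median log2 change over the list was 0.05 at day 7 and 0.03 at day 14, beside -0.02 and 0.00 over all genes. The 3 were the RA-degrading enzyme Cyp26b1, the retinaldehyde reductase Dhrs3 and Rai14, an actin-associated protein named for its induction by RA. Cyp26b1 lay between 0 and 5.52 CPM in all libraries without RA, between 187 and 214 CPM in T7+RA and between 596 and 655 CPM in T14+RA. On 2 counts in each -RA group, its ratio of summed counts was 228 at day 7 (interval 62.6 to 1886) and 633 at day 14 (interval 175 to 5236). Dhrs3 rose by 5.34 ± 0.220 on the log2 scale at day 7 (edgeR adjusted p = 4.56e-30) and 5.13 ± 0.197 at day 14 (edgeR adjusted p = 1.42e-31). Rai14 rose by 1.29 ± 0.120 at day 7 and 1.29 ± 0.118 at day 14 (edgeR adjusted p = 1.97e-13 and 5.16e-14). The RA change of Tgm2 thus lay between those of Dhrs3 and Rai14, and the change of Btg2 below that of Rai14. The receptors Rara, Rarg, Rxra and Rxrb did not pass the test, with log2 changes between -0.51 and 0.36.

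**Figure D2:**
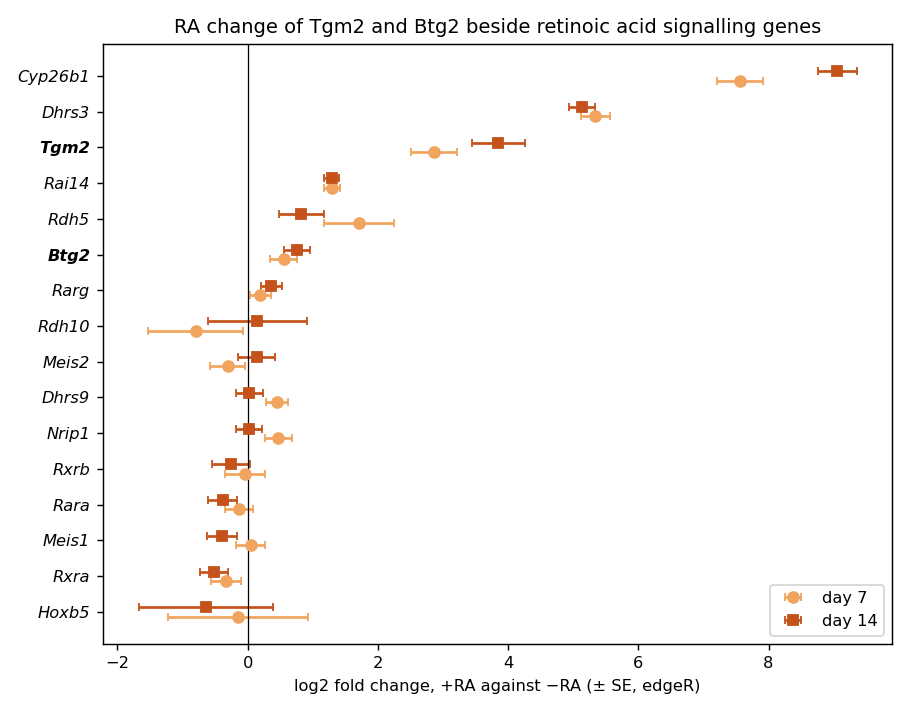
RA change of Tgm2 and Btg2 (bold) beside 14 measured genes of RA signalling, as the log2 fold change of +RA against -RA on the x axis with bars of ± SE from edgeR, circles for day 7 and squares for day 14. Tgm2 lies at 2.86 and 3.85, between Dhrs3 and Rai14, and Btg2 at 0.56 and 0.75. The position of Cyp26b1 rests on 2 counts in each -RA group, and Rarres2, with no count in T7+RA, is not drawn.

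Of 7 other listed transglutaminases, 3 were measured. Tgm1, the keratinocyte enzyme, and Tgm4, the prostate enzyme, were measured on 23 and 74 counts and did not pass the test at either day, with log2 changes with RA of 1.56 ± 1.20 and 0.15 ± 0.621 at day 7 and -0.18 ± 0.990 and -0.96 ± 0.662 at day 14. With 2 counts of Tgm1 in T7-RA and 6 in T7+RA, the size of its change at day 7 was not resolved at this depth, and the difference from Tgm2 was not tested. F13a1, the A subunit of coagulation factor XIII, was lower with RA. It had 1 count at T0, 8 after 7 days without RA and 51 after 14 days, where it reached 25.2 ± 4.41 CPM, and 0 in all 6 libraries with RA. T14-RA was at least 19.0-fold higher than T14+RA, and at day 7 the bound was 2.38-fold (edgeR adjusted p = 0.0531). Without RA, F13a1 rose from T0 to T14-RA by a ratio of summed counts of 44.5, with an interval of 7.64 to 1792. Of its 60 counts 51 lay in T14-RA, so F13a1 passed the filter of more than 20 counts only through that group. The values of T14-RA against other groups thus describe that choice and are given without a test. F13a1 was highest in T14-RA, the group where the skeletal muscle markers also summed highest, and the part of the marker shift in its level was not tested.

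Of 14 listed partners and substrates of transglutaminase 2, 13 were measured. With RA, 5 rose and 0 fell at day 7, and 4 rose and 1 fell at day 14, while at an unadjusted p under 0.05 there were 5 higher and 1 lower at day 7 and 6 higher and 2 lower at day 14. The list had a median log2 change of 0.15 and 0.10 beside -0.02 and 0.00 over all genes. The genes that rose included Ltbp1, which stores latent TGF-beta in the matrix (0.62 ± 0.0998 at day 7 and 1.11 ± 0.0971 at day 14, edgeR adjusted p = 2.53e-06 and 1.1e-14), and the phospholipid-binding protein Anxa1 (0.50 ± 0.0951 and 1.11 ± 0.0962, edgeR adjusted p = 7.14e-05 and 7.13e-15). The integrin subunits Itgb5 (0.91 ± 0.0996 and 0.61 ± 0.1003, edgeR adjusted p = 5.52e-11 and 3.52e-06) and Itgb1 (0.62 ± 0.0839 and 0.68 ± 0.0846, edgeR adjusted p = 4.88e-08 and 3.19e-09) rose on both days. Fibronectin, Fn1, was the gene that fell at day 14, by 0.84 on the log2 scale (SE 0.0947, edgeR adjusted p = 1.59e-09), and the value was -0.41 at day 7 (edgeR adjusted p = 0.00228). With limma on quantile-normalized counts 1 gene of the list was called at day 7 and 2 at day 14.

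**Figure D3:**
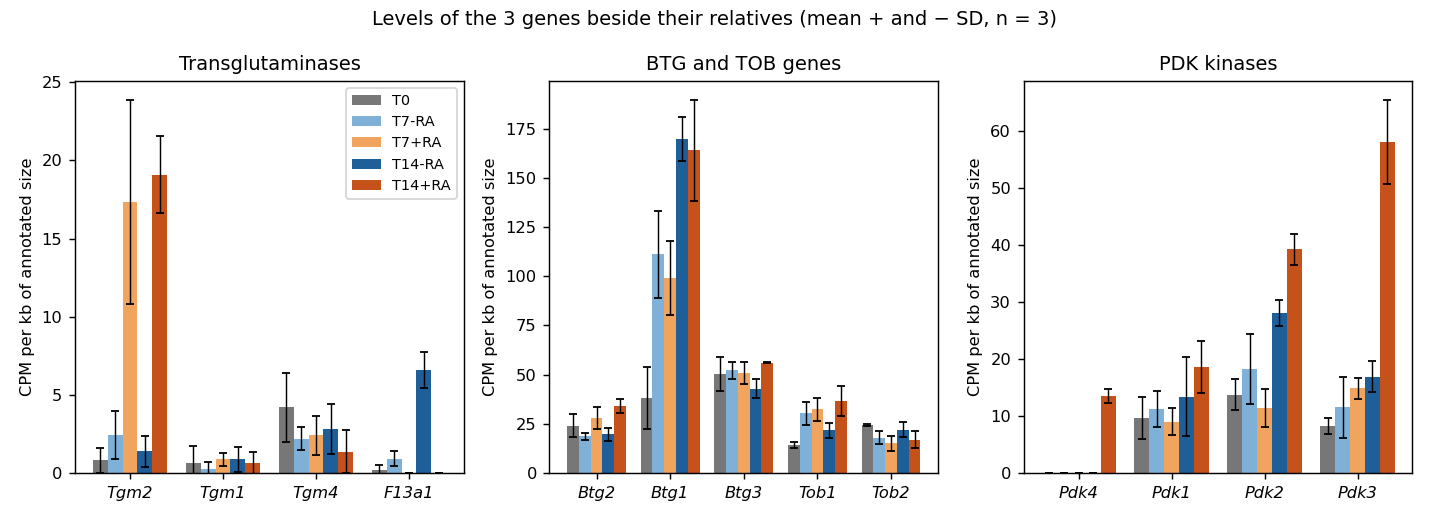
Levels of Tgm2, Btg2 and Pdk4 beside the measured members of their families, as mean CPM per kb of annotated size on the y axis (bars, with error bars of 1 SD above and below, n = 3, ending at 0), for the 5 groups. Tgm2 and F13a1 are high in different groups, Btg1 rises with time with and without RA, and Pdk3 and Pdk4 step up in T14+RA.

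The relatives of Btg2 did not pass the test with RA, and Btg2 itself was given no test. Of 4 measured BTG and TOB genes, edgeR, DESeq2 and both limma forms called 0 at either day, and at an unadjusted p under 0.05 there were 0 at day 7 and 1 at day 14. Btg1, the closest relative of Btg2, had log2 changes with RA of -0.17 ± 0.161 and -0.07 ± 0.143 at days 7 and 14. It rose with time without RA, by 1.50 ± 0.197 from T0 to T7-RA (edgeR adjusted p = 4.66e-08) and 2.13 ± 0.188 to T14-RA (edgeR adjusted p = 3.21e-13), from 55.9 ± 22.9 CPM at T0 to 248 ± 16.1 CPM. Limma on quantile-normalized counts called no gene of the family between T7-RA and T0, so the earlier call of Btg1 was lost there, and it called 1 between T14-RA and T0. Btg3 had RA changes of -0.04 and 0.38, Tob1 of 0.12 and 0.75 and Tob2 of -0.24 and -0.33, and the value of Tob1 at day 14 had an edgeR adjusted p of 0.0132. At day 14 the change of Tob1 (0.75 ± 0.217) was of the same size as that of Btg2 (0.75 ± 0.201). Tob1 rose by 1.10 ± 0.250 from T0 to T7-RA (edgeR adjusted p = 0.00054), a call that was lost under limma-voom, limma on quantile-normalized counts and DESeq2 and without any of 5 single T0 or T7-RA libraries. Per length, Btg1 in T14+RA stood at 164 ± 25.7 CPM per kb and Btg2 at 33.8 ± 3.64.

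A list of 15 genes held the CCR4-NOT genes together with Pan2, Pan3, Pabpc1 and Prmt1. Of these 15, edgeR, DESeq2 and both limma forms called 0 with RA at either day. At an unadjusted p under 0.05 there was 1 lower at day 7, and 2 higher and 2 lower at day 14. Among 14 measured p53 targets, 3 rose with RA at day 7 and 2 at day 14, and 0 fell, with 5 and 4 higher and 0 lower at an unadjusted p under 0.05. Gadd45a, a growth arrest gene, rose by 1.28 ± 0.152 and 1.51 ± 0.121 (edgeR adjusted p = 9.67e-10 and 3e-16), and Plk2, a stress-induced kinase, by 1.04 ± 0.139 and 0.85 ± 0.152 (edgeR adjusted p = 2.33e-08 and 1.7e-05). Mdm2, which targets p53 for degradation, rose by 0.57 ± 0.118 at day 7 (edgeR adjusted p = 0.000338) and was 0.40 at day 14 (edgeR adjusted p = 0.021), while the cell cycle inhibitor Cdkn1a had values of -0.04 and -0.20. Limma on quantile-normalized counts called 0 of these at day 7 and 1 at day 14, and without T14-RA replicate 3 the count at day 14 was 1. With time and without RA, 5 of the 14 rose from T0 to T14-RA and 0 fell, where 7.83% of all genes rose. They included Gadd45a (2.91 ± 0.204, edgeR adjusted p = 3.25e-19) and Cdkn1a (1.13 ± 0.126, edgeR adjusted p = 2.94e-11). DESeq2 and both limma forms each called 4 of the 14 there. Of 17 measured immediate early genes, 0 rose and 1 fell at each day, while at an unadjusted p under 0.05 2 were higher at each day, 3 lower at day 7 and 5 lower at day 14. That gene was the transcription factor Klf4, which fell by 2.18 ± 0.257 at day 7 and by 3.01 ± 0.324 at day 14 on the log2 scale (edgeR adjusted p = 8.73e-10 and 3.07e-11), and limma on quantile-normalized counts called 0 of the 17 at day 7 and 1 at day 14.

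Of 19 measured genes of cell division, 1 rose with RA at day 7 and none was called at day 14 by edgeR, DESeq2 or either limma form, with 0 higher and 7 lower at an unadjusted p under 0.05, where 11.3% of all genes were lower. The gene at day 7 was cyclin D1, Ccnd1, with a log2 change of 0.81 ± 0.0914 (edgeR adjusted p = 1.44e-10), and its value at day 14 was -0.06. Limma on quantile-normalized counts called 0 of the 19 at day 7, and in edgeR 4 were lower there at an unadjusted p under 0.05. With time and without RA, 13 of the 19 fell from T0 to T14-RA and none rose, among them the replication licensing genes Mcm5 (-2.18 ± 0.141, edgeR adjusted p = 8.71e-21) and Mcm3 (-2.06 ± 0.186, edgeR adjusted p = 1.43e-14).

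Among the relatives of Pdk4, the kinase Pdk3 also stepped up in T14+RA. It had 32.4, 35.4 and 44.0 CPM in T14-RA and 117, 121 and 147 CPM in T14+RA. The groups did not overlap, and Pdk3 rose by 1.78 ± 0.214 (edgeR adjusted p = 9.31e-10), while at day 7 the change was 0.39 ± 0.286 (edgeR adjusted p = 0.556). Pdk1 and Pdk2 did not pass the test, with log2 changes with RA of -0.30 ± 0.387 and -0.69 ± 0.346 at day 7 and 0.39 ± 0.324 and 0.47 ± 0.256 at day 14. The opposing phosphatases Pdp1 and Pdp2 had values of -1.08 ± 0.320 (edgeR adjusted p = 0.0158) and -0.47 ± 0.245 at day 14, and the phosphatase regulator Pdpr of -0.28 ± 0.256. In all, 1 of 6 genes other than Pdk4 rose and 0 fell at day 14, and limma on quantile-normalized counts called none. At day 7 edgeR, DESeq2 and both limma forms called 0 of 6, and 1 had an unadjusted p under 0.05. Per length, T14+RA had 58.0 ± 7.38 CPM per kb of Pdk3, 39.2 ± 2.67 of Pdk2, 18.6 ± 4.52 of Pdk1 and 13.5 ± 1.28 of Pdk4. Pdk4 had the lowest mean of the 4 kinases, and its libraries overlapped those of Pdk1.

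Of 7 measured genes of the pyruvate dehydrogenase complex and the pyruvate carrier, edgeR, DESeq2 and both limma forms called 0 with RA at either day, with 1 at day 7 and 2 at day 14 at an unadjusted p under 0.05. From T0 to T14-RA 3 rose, Pdhb (1.07 ± 0.216, edgeR adjusted p = 4.99e-05), Dld (0.90 ± 0.167, edgeR adjusted p = 1.08e-05) and Pdha1 (0.74 ± 0.140, edgeR adjusted p = 1.81e-05), and limma on quantile-normalized counts called 1 of the 7. Of 19 measured PPAR and FOXO targets and regulators, among which Pdk4 is usually counted, 2 rose with RA at day 14. They were the ubiquitin ligase Fbxo32 of muscle atrophy (1.22 ± 0.240, edgeR adjusted p = 0.000114) and the lipid droplet protein Plin2 (0.78 ± 0.134, edgeR adjusted p = 7.86e-06). At day 7 edgeR, DESeq2 and both limma forms called 0 of the 19. At an unadjusted p under 0.05, 5 were higher and 1 lower at day 7 and 7 higher and 1 lower at day 14, where 8.67% and 10.3% of all genes were higher. The count of 2 at day 14 became 4 without T0 replicate 2, 1 without T14-RA replicate 1 or 2 and with DESeq2, and 0 with limma on quantile-normalized counts. With time and without RA, 5 of the 19 rose from T0 to T14-RA and 0 fell. Among them were Fbxo32 (1.77 ± 0.374, edgeR adjusted p = 0.000118) and Plin2 (0.75 ± 0.163, edgeR adjusted p = 0.00016). DESeq2 called 4 of the 19 there, limma-voom 3 and limma on quantile-normalized counts 2.

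Markers of other cell states moved with RA over the same libraries. The 9 measured skeletal muscle markers summed to between 2815 and 3396 CPM in T7-RA and between 1520 and 1863 CPM in T7+RA, and to between 11004 and 11560.5 CPM in T14-RA and between 4806 and 5587 CPM in T14+RA. At T0 they summed to between 279 and 321 CPM. Of the 9, 3 fell with RA at day 7 and 5 at day 14, and 0 rose by edgeR, with 1 higher at day 7 at an unadjusted p under 0.05, while limma on quantile-normalized counts called 1 and 2. Of the 3 measured cardiac markers, Actc1, the cardiac actin, fell by 1.77 and 3.00 on the log2 scale at days 7 and 14, and the call at day 7 was lost under both limma forms. The 6 measured smooth muscle markers summed to between 15822 and 17306 CPM at T0, between 4058 and 5586 CPM in T7-RA and between 4865 and 5449 CPM in T7+RA. They summed to between 3576 and 3698 CPM in T14-RA and between 4162 and 4982 CPM in T14+RA, without overlap, and edgeR called Acta2 higher (0.39 on the log2 scale) and Smtn lower (-1.38) at day 14 and Smtn lower (-0.75) at day 7. DESeq2 and limma on quantile-normalized counts each called 1 of the 6 at day 14, and DESeq2 and both limma forms called 0 at day 7. The 6 measured fibroblast markers summed to between 23290 and 42073 CPM in all libraries, with 2 lower with RA at day 7 and 1 higher and 4 lower at day 14. The count of 5 at day 14 became 2 with DESeq2, 3 with limma-voom and 1 with limma on quantile-normalized counts. Among them the matrix protein periostin, Postn, fell by 5.27 ± 0.207 at day 7 and by 5.73 ± 0.234 at day 14 on the log2 scale (edgeR adjusted p = 2.69e-20 and 6.04e-20). The part of these shifts in the levels of Tgm2, Btg2 and Pdk4 was not tested.

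The genes whose log2 CPM ran most closely with each of the 3 were sought by Pearson correlation over the 15 libraries among genes with a mean of at least 10 counts. For Tgm2 they were Exoc6b, a subunit of the exocyst (r = 0.949), App, the amyloid precursor protein (0.932), the tetraspanin Cd82 (0.929), Gm2a, the GM2 ganglioside activator (0.928), and Ston1, an endocytic adaptor (0.924). App had a mean of 671 CPM at T0, of 848 and 778 without RA at T7 and T14, and of 1718 and 2144 with RA, so its step with RA was smaller than that of Tgm2. For Btg2 the r values were lower, with mesothelin (Msln, 0.872), the small GTPase Rhoc (0.845), LOC499331 (0.845), the transcription factor Maff (0.835) and Rps19bp1 (0.830). Msln went from 54.7 CPM at T0 to 33.6 and 37.7 without RA at T7 and T14 and to 97.6 and 198 with RA. For Pdk4 the nearest gene was matrix Gla protein, Mgp, an inhibitor of calcification (r = 0.946), followed by Inpp5a, an inositol phosphatase (0.920), the ATP synthase subunit Atp5f1b (0.920), Olfml3 (0.911) and the glutathione transferase Gstp1 (0.903). Mgp had 1 count at T0, 1 and 7 without RA at T7 and T14, and 6 and 164 with RA. In T14+RA its mean was 74.6 ± 24.3 CPM. Mgp was picked for its likeness to Pdk4 and had the counts to be considered only through T14+RA, so these values describe the choice. The ranking was loose, since with Spearman in place of Pearson correlation 0 of the 5 genes of Tgm2, 2 of those of Btg2 and 0 of those of Pdk4 stayed among the nearest 5.

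**Figure D4:**
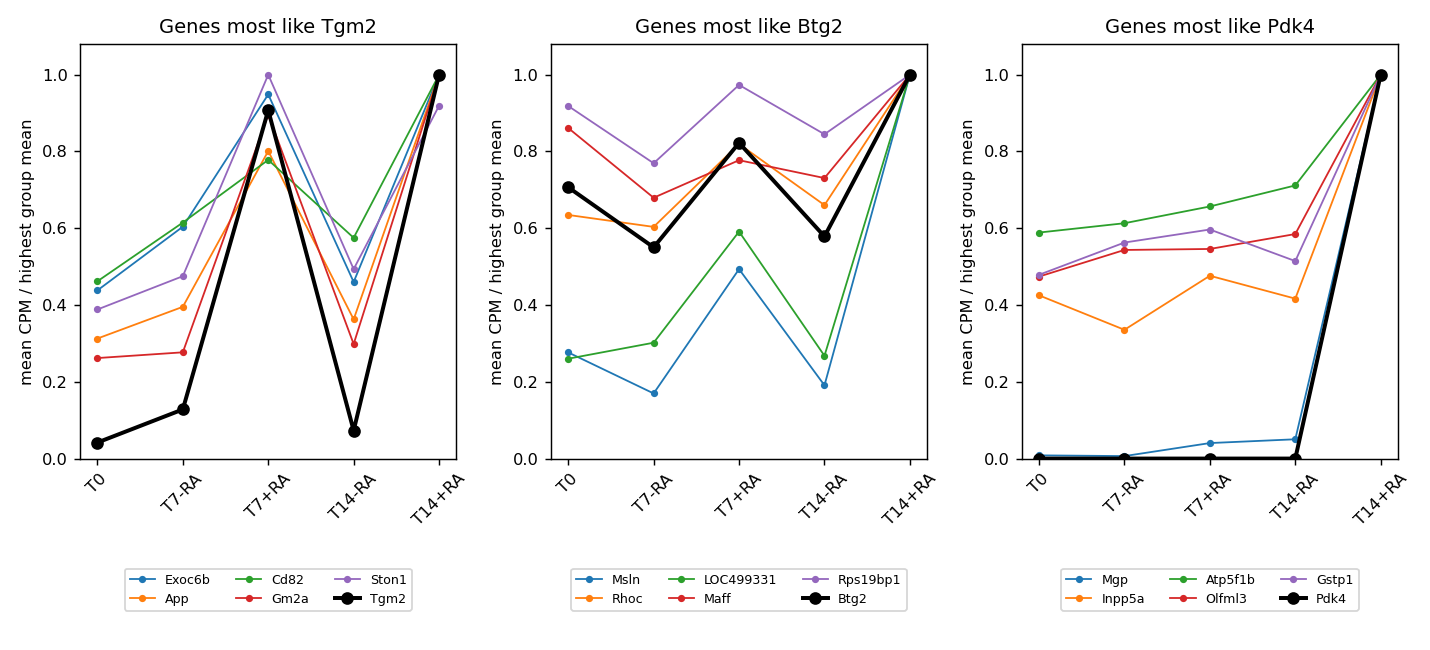
Mean CPM of each of the 3 genes (black) and of the 5 genes most like it (colours) in the 5 groups, each divided by its own highest group mean, on a linear axis from 0. Lines only join the groups for reading. The genes near Tgm2 are high in both RA groups, while Pdk4 and Mgp are high in T14+RA alone and the other genes near Pdk4 keep a sizeable level in every group.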

How the data were processed

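Stranded mRNA libraries of 15 H9c2 cultures were sequenced, and the labels gave each its group and replicate number. All 15 titles name H9c2, while the cell line field of 12 samples holds a name numbered otherwise, and the titles were followed. The authors trimmed the reads, mapped them with HISAT2 to a rat genome (Rnor 6.0, per the submitters' processing notes), counted them per gene with featureCounts and deposited raw counts for the genes summing to more than 20. Which annotation release was used and whether counting was by strand is not given in the sources used here, so reads of antisense or overlapping genes cannot be separated. What the size column of the deposited annotation measures is not explained there, and it was used as the length of the gene's transcript.

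The 3 genes, the gene lists and the tests were chosen with earlier results of these data known. Counts per library ranged from 508397 to 1030820, and intervals and limits cover counting error alone, as no molecular identifiers were used. A model with 5 group means was fitted to all 15 libraries in edgeR 4.0.16 (R 4.3.3) with TMM scaling and robust quasi-likelihood dispersions (common dispersion 0.00781), and p-values were adjusted over all 11574 genes by the Benjamini-Hochberg method. The threshold was an adjusted p under 0.001, as in the study. All comparisons of Tgm2, Btg2 and Pdk4 are given with no test, including those of time without RA, for which a test had been planned. Against a group with no count a fold is given only as a bound, from a limit of 3 counts over that group. CPM used for correlations had a prior count of 2.

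Genes named were the 3 members, all measured members of their 3 families, up to 4 genes of every other list that passed with RA and had the largest mean change over both days (for time, the largest change from T0 to T14-RA), cell type markers, and the 5 genes most correlated with each member. Beyond this rule the RA receptors, Rarres2, Cdkn1a, Fn1, Itga5 and Pdha1 were named after their values were seen. Alternatives were scaling by library size alone or by relative log expression, a minimum of 10 counts in every library, edgeR's own filter on low counts, the additive model of the study with T7, T14 and RA terms, a replicate block, limma-voom and limma on quantile-normalized log2(count + 1) (limma 3.58.1), DESeq2 1.42.0, the 2 compared groups alone, an adjusted p of 0.05, and each library left out in turn. No 2 libraries of the same group agreed within sampling noise (smallest chi-square per gene between replicates 1.07), so all were kept. Promoter sequences are from RefSeq (GRCr8), and 2 of the 3 genes matched that table.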

Additional observations from a re-analysis of the deposited data

Results flagged for a closer look

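The RA change of 6 of the 157 genes of the lists (3.82%) differed between day 14 and day 7 by edgeR's test of the difference itself, at an adjusted p under 0.05, where 0.743% of all genes did, and 1 of the 6, Ccnd1, passed 0.001. The integrin subunit Itga5 was higher with RA at day 7 (0.63) and not at day 14 (-0.10), a difference of -0.73 on the log2 scale (SE 0.161, edgeR adjusted p = 0.00764). Cyclin D1, Ccnd1, showed the same kind of loss, from 0.81 to -0.06, a difference of -0.87 (SE 0.130, edgeR adjusted p = 7.34e-06). Anxa1 gained, from 0.50 to 1.11, a difference of 0.61 (SE 0.135, edgeR adjusted p = 0.00777). The kinase Pdk3 gained most, from 0.39 to 1.78, a difference of 1.39 (SE 0.365, edgeR adjusted p = 0.0461), close to the threshold. Of the skeletal muscle markers, Mymk, which drives myoblast fusion, went from -0.93 to -2.28, a difference of -1.34 (SE 0.340, edgeR adjusted p = 0.0322). The myogenic factor Myod1 went from 0.77 to -0.28, a difference of -1.04 (SE 0.266, edgeR adjusted p = 0.0369). For Tgm2 and Btg2 the same difference was 0.99 (SE 0.658) and 0.20 (SE 0.292), and for Pdk4 it could not be fitted, since 3 of the 4 groups had no count.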

How the results depend on the processing

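Of 488 values of the 3 genes recomputed under alternatives, 17 moved by more than the replicate spread and 3 changed sign, where values for time without RA were judged by their sign and an adjusted p under 0.001 alone. The RA change of Tgm2 at day 14 was 3.27 with the additive model, which gives 1 RA value for both days, and limma on quantile-normalized counts gave 3.63 and 3.83 for T7+RA and T14+RA against T0. Leaving out single libraries, the RA change of Tgm2 ranged from 2.54 to 3.42 at day 7 and from 3.44 to 4.51 at day 14, its difference between days from 0.43 (without T7-RA replicate 3) to 1.64 (without T14-RA replicate 2), and its changes from T0 from 3.91 to 5.09 in T7+RA and from 4.05 to 5.23 in T14+RA. The value of Tgm2 for T7-RA against T0 ranged from 0.94 to 2.22, and that for T14-RA against T7-RA from -1.52 to -0.31, and with the additive model the latter was -0.00068. The value of Tgm2 for T14-RA against T0 ranged from -0.028 to 1.37 and turned negative (-0.028) without T14-RA replicate 2. Its T14+RA against T7+RA value ranged from -0.12 to 0.29 and turned negative without T7+RA replicate 3. For Btg2, T14-RA against T7-RA ranged from -0.062 to 0.18 and turned negative (-0.062) without T14-RA replicate 1, while its RA change stayed between 0.42 and 0.70 at day 7 and between 0.66 and 0.90 at day 14. The difference of its RA change between days ranged from 0.058 to 0.33. Against T0, Btg2 ranged from 0.018 to 0.32 in T7+RA and from 0.31 to 0.60 in T14+RA. Without RA its change from T0 ranged from -0.54 to -0.25 at T7 and from -0.44 to -0.15 at T14. The lower bounds of Pdk4 ranged on the log2 scale from 3.02 to 3.86 against T14-RA, from 2.85 to 3.66 against T0 and from 3.18 to 3.89 against T7+RA, and the bound falls by construction when a library leaves the group at 0. With library size only, the median of all genes shifted to 0.13 for T7-RA and 0.14 for T14-RA against T0. With a minimum of 10 counts in every library Tgm2 and Pdk4 left the test, and no fitted value of Pdk4 is given under any alternative. Of 2750 list counts, 2528 stayed within 1.5 times, 130 were lower and 92 higher.

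The replicate numbers are shared between groups, but nothing says that cultures of one number were grown together. Deviations of libraries with the same number had a mean correlation of 0.0321 (range -0.0394 to 0.186), and 8 of 15 libraries correlated best with their own number. With the replicate block the RA change was 2.84 and 3.85 for Tgm2 and 0.56 and 0.75 for Btg2 at days 7 and 14, and the number of genes called with RA was 253 higher and 176 lower at day 7 and 313 higher and 315 lower at day 14, beside 216, 151, 285 and 272 without it. Depth limits Tgm2 in the groups without RA, where it had 5 to 19 counts, and Pdk4, which had no count outside T14+RA.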
